A study of Glycine max with 26 samples.

Results

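PRP3, HPS and Ep are 3 soybean genes whose symbols stand for proteins of the plant cell wall or of the outer layers of the seed, and their transcripts were followed through 2 days of constant light. The probe sets were taken by annotation alone, as every probe set whose only gene symbol was PRP3, HPS or Ep. This gave 3 probe sets, 1 per gene, of the 16383 in the table used here, of which 5002 carry exactly 1 symbol. All 3 passed the filter of a mean log2 signal above 4, as did 11481 probe sets in all.

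The arrays measured RNA from seeds of the Glycine max cultivar Williams 82, taken with their seed coats 5 weeks after flowers were marked at opening. All plants had grown in cycles of 12 h light and 12 h dark at 25 °C and stayed in constant light from a subjective dawn onwards, so that no array comes from a plant kept in light and dark cycles. Seeds were collected every 4 h from 24 h to 72 h of constant light, where 24, 48 and 72 h are subjective dawns. Each of the 13 times has 2 replicates, each a pool of 8 seeds from 3 plants on 1 single-colour array, 26 arrays in all.

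PRP3 is a symbol for a proline-rich protein. The annotation gives the symbol without a description, so that the identity of this probe set rests on the symbol alone. Proline-rich proteins are secreted, become insoluble in the wall of dividing, expanding or wounded plant tissues and are built largely of short repeated proline-rich motifs. HPS, the hydrophobic seed protein, is a small cysteine-rich protein that is made in the inner layer of the soybean pod wall and deposited on the seed surface, where it affects seed lustre and acts as an allergen. Ep encodes the seed coat peroxidase, a secreted haem enzyme that accumulates in a cell layer of the soybean seed coat and oxidizes phenolic substrates with hydrogen peroxide. In plants the circadian clock keeps running in constant light, and a transcript that it drives repeats about once a day without any light cue.

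Seed markers were strong in these arrays. The strongest probe sets of the storage protein genes GY1, GY2, GY3 and GY5 averaged between 13.50 and 16.24 log2 signal, and those of the protease inhibitor genes KTI3 and BBI averaged 15.47 and 15.12. The seed coat gene SCB1 averaged 11.46, while CG-1, of a conglycinin, lay at 2.30, near the lowest signals of the arrays. Another conglycinin gene, CG-BETA-1, averaged 13.07 and 15.68 on its 2 probe sets. The green tissue genes CAB3 and PSAD were also well above the filter, at 14.89 and 12.26. The lowest signal of an array ran from 1.54 to 2.04 in 13 arrays, called low floor arrays here, and from 2.40 to 3.02 in the 13 high floor arrays, with 1 of each at every time. Precision is limited by how many arrays there are. In whole seeds, fewer cells of the seed coat and less RNA per cell cannot be told apart.

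The PRP3 probe set passed the test of a 24 h rhythm given below. Its signals were high from 40 to 48 h and from 64 to 72 h, in the subjective night and at dawn. The rhythm call ended in some other settings and without either of 2 single arrays. On the first day the log2 signals of replicates 1 and 2 were 9.99 and 10.22 at 24 h, 9.56 and 9.83 at 28 h, 9.86 and 9.63 at 32 h, 9.66 and 9.83 at 36 h, 10.26 and 10.15 at 40 h, and 10.48 and 10.06 at 44 h. On the second day they were 10.36 and 10.45 at 48 h, 9.85 and 10.39 at 52 h, 9.73 and 9.76 at 56 h, 9.28 and 9.88 at 60 h, 10.59 and 10.05 at 64 h, and 10.05 and 10.86 at 68 h. At 72 h they were 10.23 and 10.26. Both arrays of 24 h and all arrays from 40 to 48 h and from 64 to 72 h lay above all arrays of 28, 32, 36, 56 and 60 h, and 52 h had 1 array among each. These times were grouped after the values were seen, and how many other probe sets split in such a way was not counted. The split is therefore a description and not a test.

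The ordered time means of PRP3 fell into a high and a low set. The highest were 10.46 at 68 h, 10.40 at 48 h, 10.32 at 64 h and 10.27 at 44 h, followed by 10.24 at 72 h, 10.20 at 40 h, 10.12 at 52 h and 10.10 at 24 h. The next mean was 9.75 at 32 h, and the lowest was 9.58 at 60 h. The step of 0.36 log2 between 24 h and 32 h in that order was the only one of the 12 steps above the pooled replicate SD of 0.28, so that other neighbours in the order do not differ beyond the spread. That step was found after ordering and was not tested, so the means are not shown to form separate sets. The difference between the highest and the lowest time mean was 0.88 log2, a 1.83-fold difference in signal.

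**Figure D1:**
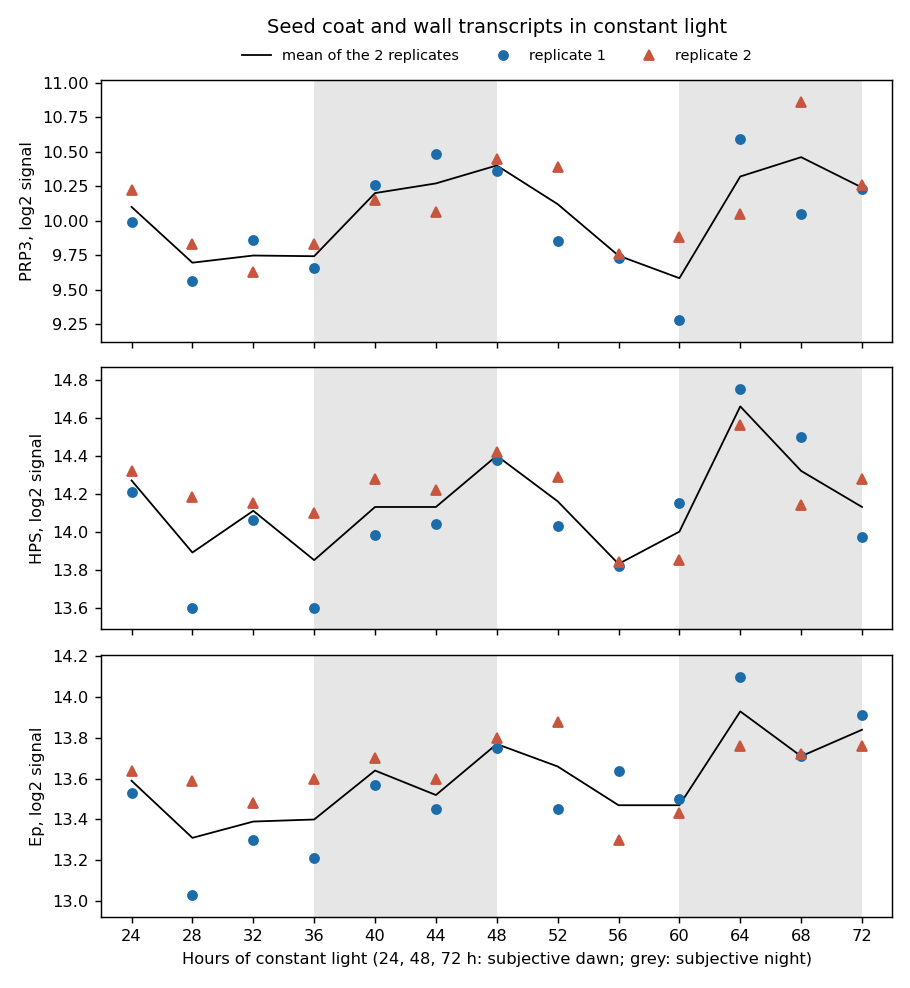
Log2 signal (vertical axes, each on its own range) of PRP3, HPS and Ep against hours of constant light; points are the 26 arrays, lines join the means of the 2 replicates, and grey marks subjective night. PRP3 lies low at 28 to 36 h and at 56 to 60 h and high at 40 to 48 h and 64 to 72 h, while HPS and Ep have their highest mean at 64 h.

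Rhythms were tested in limma with 24 h sine and cosine terms beside a linear term for time on all 26 arrays, with Benjamini-Hochberg adjustment over the 11481 probe sets tested. It called 138 of them (1.2%) at an adjusted p under 0.05, and PRP3 was called with rank 79 by p. The fitted amplitude of PRP3, from the mean to the peak, was 0.35 ± 0.07 log2 (SE), which makes the fitted peak 1.62-fold above the trough, and the peak fell 20.9 h after a subjective dawn (adjusted p = 0.0244 in limma). The median amplitude was 0.08 over all probe sets tested and 0.33 over the called ones. Peaks between 18 and 22 h were found for 84.8% of the called probe sets and for 18.6% of all tested, so the phase of PRP3 is the usual one among the calls. The call ended without 24h replicate 2 (limma adjusted p = 0.0560) or 44h replicate 1 (0.0665). It also ended with no filter on low signals (0.0504). Low floor arrays alone gave an amplitude of 0.37 and high floor arrays alone 0.33, with peaks at 20.8 and 20.9 h, and with 13 arrays neither passed (limma adjusted p = 0.732 and 0.219).

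HPS transcripts were abundant at every time and showed no rhythm that passed. Which tissue the HPS transcripts in these seed samples came from was not tested. In log2 signal, replicates 1 and 2 had 14.21 and 14.32 at 24 h, 13.60 and 14.18 at 28 h, 14.06 and 14.15 at 32 h, 13.60 and 14.10 at 36 h, 13.98 and 14.28 at 40 h, and 14.04 and 14.22 at 44 h. The second day gave 14.38 and 14.42 at 48 h, 14.03 and 14.29 at 52 h, 13.82 and 13.84 at 56 h, 14.15 and 13.85 at 60 h, 14.75 and 14.56 at 64 h, and 14.50 and 14.14 at 68 h, with 13.97 and 14.28 at 72 h. The 2 lowest arrays were replicate 1 of 28 h and of 36 h, whose replicates 2 were 0.58 and 0.50 log2 higher, and both arrays of 64 h lay above all others. Means ran from 14.66 at 64 h and 14.40 at 48 h down to 13.83 at 56 h, and only the step from 64 to 48 h, 0.25 log2, was above the pooled replicate SD of 0.21. The fitted amplitude was 0.19 ± 0.07 log2 (SE) and peaked 20.1 h after dawn, rank 942 by p (adjusted p = 0.422 in limma). HPS was among the 1186 probe sets of the table with an unadjusted p under 0.05 (10.3%).

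Ep, the peroxidase gene, had an SD of 0.23 log2 over all arrays, against 0.27 for HPS and 0.36 for PRP3. Its log2 signals in replicates 1 and 2 were 13.53 and 13.64 at 24 h, 13.03 and 13.59 at 28 h, 13.30 and 13.48 at 32 h, 13.21 and 13.60 at 36 h, 13.57 and 13.70 at 40 h, and 13.45 and 13.60 at 44 h. They were 13.75 and 13.80 at 48 h, 13.45 and 13.88 at 52 h, 13.64 and 13.30 at 56 h, 13.50 and 13.43 at 60 h, 14.10 and 13.76 at 64 h, 13.71 and 13.72 at 68 h, and 13.91 and 13.76 at 72 h. In the first 24 h replicate 1, the low floor array at each of these times, was the lower one at all 6 times, by 0.10 to 0.56 log2. The highest mean was 13.93 at 64 h and the lowest 13.31 at 28 h, and none of the 12 steps between neighbours in the order of means exceeded the pooled replicate SD of 0.20. The fitted amplitude was 0.13 ± 0.05 log2 (SE) and peaked at 20.9 h, rank 1462 by p (adjusted p = 0.525 in limma).

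The fitted peaks of the 3 genes lay close together, but those of HPS and Ep come from fits that did not pass. Whether the rhythms differ in size or phase was tested on the difference in log2 signal between 2 genes within each array. The test was a permutation of the arrays (100000 resamples, 3 pairs, added after the data were seen). PRP3 averaged 10.05 log2 signal over all arrays and Ep 13.59, and whether the level affects the size of a fitted rhythm was not tested. The difference of PRP3 and Ep had a 24 h amplitude of 0.22 ± 0.07 log2 (SE) with a peak at 20.9 h (permutation p = 0.0102, adjusted 0.0305). The log2 signal of PRP3 thus changed more over the day than that of Ep. This call ended without any of 6 single arrays, with an adjusted p of up to 0.0932 without 44h replicate 1; the others were 32h replicate 2, 36h replicate 2, 56h replicate 1, 60h replicate 1 and 68h replicate 2. PRP3 and HPS gave 0.16 ± 0.09 (SE; permutation p = 0.191, adjusted 0.287), and HPS and Ep gave 0.07 ± 0.05 (SE; permutation p = 0.423, adjusted 0.423), or 0.04 without 56h replicate 1. Neither pair passed, and a difference in rhythm between HPS and the other two genes was not detectable with these arrays.

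Late subjective night, at 44 and 68 h, was set against subjective midday, at 32 and 56 h, 20 h and 8 h after dawn. PRP3 had 10.05, 10.06, 10.48 and 10.86 log2 signal in the late night, against 9.63, 9.73, 9.76 and 9.86 at midday. The groups do not overlap, which held for 2.37% of all probe sets tested with the late night higher and for 2.06% with midday higher. Means were 10.36 ± 0.39 in the late night, against 9.75 ± 0.09 at midday (SD, n = 4 each). The limma contrast was 0.62 ± 0.18 log2 (SE) and did not pass (adjusted p = 0.206), where 0.54% of the probe sets tested did and 7.85% had an unadjusted p under 0.05. It passed without 68h replicate 1, at 0.82 (limma adjusted p = 0.0478). Without 68h replicate 2 the contrast fell to 0.41, and without 44h replicate 1 to 0.51, so its size depends on single arrays in both directions.

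HPS averaged 14.22 ± 0.20 log2 signal in the late night, against 13.97 ± 0.16 at midday (SD, n = 4 each), and its groups overlap (limma contrast 0.26 ± 0.15, SE, adjusted p = 0.763). For Ep the means were 13.62 ± 0.13 in the late night, against 13.43 ± 0.17 at midday (SD, n = 4 each), with overlap (limma contrast 0.19 ± 0.14, SE, adjusted p = 0.887). The contrast was 0.17 for HPS without 68h replicate 1 and 0.10 for Ep without 56h replicate 2. These contrasts use the arrays of the rhythm fit and are no further evidence of a rhythm.

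Subjective dawn, at 24, 48 and 72 h, against subjective dusk, at 36 and 60 h, was compared next. PRP3 ran from 9.99 through a median of 10.24 to 10.45 at dawn, and had 9.28, 9.66, 9.83 and 9.88 at dusk. Its groups do not overlap, as for 0.775% of all probe sets tested with dawn higher and 0.366% with dusk higher. Means were 10.25 ± 0.16 at dawn (SD, n = 6), against 9.66 ± 0.27 (SD, n = 4) at dusk, and differed by 0.59 ± 0.17 (log2, SE; adjusted p = 0.567 in limma). HPS averaged 14.26 ± 0.16 at dawn (SD, n = 6), against 13.93 ± 0.25 (SD, n = 4) at dusk, and differed by 0.34 ± 0.13 (log2, SE; adjusted p = 0.808 in limma). Ep averaged 13.73 ± 0.13 at dawn (SD, n = 6), against 13.44 ± 0.17 (SD, n = 4) at dusk, and differed by 0.30 ± 0.13 (log2, SE; adjusted p = 0.856 in limma). The groups of HPS and of Ep overlap, and the difference of HPS was 0.21 without 36h replicate 1. No probe set of the table passed this limma contrast (0%), with 621 at an unadjusted p under 0.05 (5.41%).

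**Figure D2:**
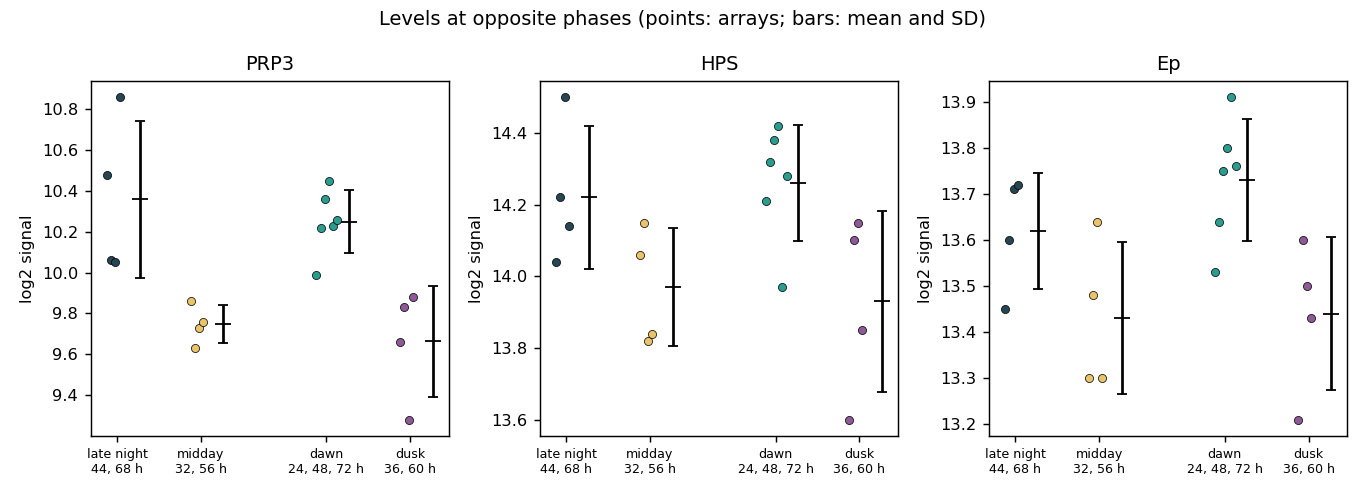
Log2 signal (vertical axes, each on its own range) of PRP3, HPS and Ep in late subjective night, subjective midday, dawn and dusk; points are arrays and bars are the mean and SD. For PRP3 the late night arrays lie above all midday arrays and the dawn arrays above all dusk arrays, while the groups of HPS and Ep overlap.

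Across the 2 days the fitted drift was upward for all 3 genes and passed for none. The second cycle, 48 to 68 h, averaged 10.10 ± 0.44 for PRP3, 14.23 ± 0.31 for HPS and 13.67 ± 0.22 for Ep in log2 signal (SD, n = 12 each). The first cycle, 24 to 44 h, averaged 9.96 ± 0.28 for PRP3, 14.06 ± 0.24 for HPS and 13.48 ± 0.20 for Ep (SD, n = 12 each). The linear term of the limma fit, over 48 h, was 0.31 ± 0.12 log2 (SE) for Ep, with an unadjusted p of 0.0194 and an adjusted p of 0.838. It was 0.18 ± 0.16 (SE) for PRP3 and 0.11 ± 0.16 (SE) for HPS, with limma adjusted p of 0.986 and 0.994. The term of PRP3 was 0.12 without 68h replicate 2. That of HPS was 0.05 without 28h replicate 1, 0.06 without 36h replicate 1 or 64h replicate 1, and 0.20 without 72h replicate 1. None of the 11481 probe sets passed this test (0%), and 612 had an unadjusted p under 0.05 (5.33%). The sign of the term turned for PRP3 in low floor arrays alone (-0.05) and for HPS in high floor arrays alone (-0.21).

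The second cycle gave PRP3 an amplitude of 0.45 log2 with a peak at 21.6 h, and the first cycle 0.32 with a peak at 19.5 h. HPS had 0.31 in the second cycle and 0.13 in the first, and Ep had 0.18 in the second and 0.14 in the first. A limma interaction on the 24 arrays from 24 to 68 h found no difference between the cycles that passed for PRP3 (adjusted p = 0.706), HPS (0.724) or Ep (0.939). No probe set of the table passed it (0%), with 1186 at an unadjusted p under 0.05 (10.3%). A test of any difference among the 13 times, with no assumption on shape, gave limma adjusted p of 0.552 for PRP3, 0.608 for HPS and 0.813 for Ep, where 5 probe sets passed (0.0436%) and 860 had an unadjusted p under 0.05 (7.49%).

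**Figure D3:**
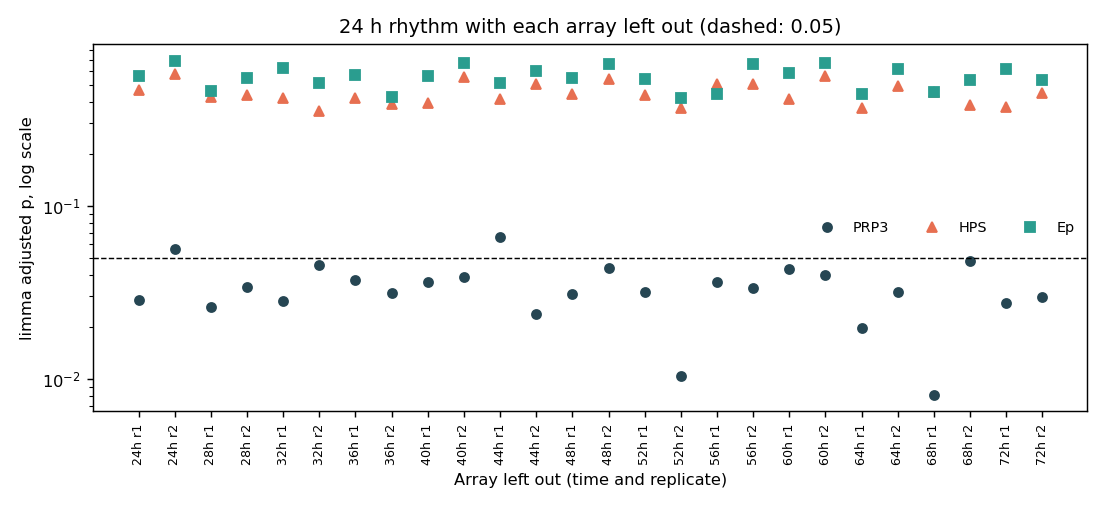
Limma adjusted p of the 24 h rhythm (vertical axis, log scale) of PRP3, HPS and Ep with each of the 26 arrays left out in turn (horizontal axis, time and replicate); the dashed line is 0.05. PRP3 stays under the line except without 24h replicate 2 or 44h replicate 1, and HPS and Ep stay above 0.35 throughout.

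The time means and the replicate differences of the 3 genes were also set side by side. Over the 13 time means Pearson's r was 0.77 between PRP3 and HPS, 0.83 between PRP3 and Ep and 0.82 between HPS and Ep. These means share their arrays and normalization and are given as a description. Where time is the same, the 13 differences of replicate 1 minus replicate 2 gave r = 0.66 and rho = 0.65 for HPS and Ep (permutation p = 0.0143 and 0.0179). Adjusted over the 9 relations computed the values were 0.129 and 0.162, so this relation did not pass. Its differences had the same sign at 10 of the 13 times, and r was 0.60 without the differences at 28 h and 56 h. Over times, r of HPS and Ep was 0.82 within low floor arrays and 0.73 within high floor arrays, that of PRP3 and Ep 0.52 and 0.74, and that of PRP3 and HPS 0.46 and 0.54, given as a description. For PRP3 the replicate differences gave r = -0.19 and rho = -0.08 with HPS (permutation p = 0.529 and 0.807, adjusted 0.529 and 0.807), and r was 0.00 without 28 h and 68 h. With Ep they gave r = 0.30 and rho = 0.20 (permutation p = 0.328 and 0.515, adjusted 0.413 and 0.653), and r was 0.28 without 28 h and 56 h.

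Embryo gene lists were read beside these values. The mean of the 18 tested probe sets of embryo storage protein genes was 13.63 ± 0.11 in the late night and 13.65 ± 0.12 at midday (SD, n = 4 each), and that of the 33 of seed maturation proteins was 11.84 ± 0.34 in the late night and 11.88 ± 0.34 at midday (SD, n = 4 each). Maturation genes averaged 11.80 ± 0.23 at dawn (SD, n = 6), against 12.07 ± 0.07 (SD, n = 4) at dusk, the opposite direction to the 3 genes, and their part in the result was not tested. Between replicates of a time, r of PRP3, HPS and Ep with the storage mean was -0.36, 0.41 and 0.40, and with the maturation mean -0.29, 0.30 and -0.27. None passed (permutation p of 0.162 to 0.367, adjusted 0.413 for each), and rho ran from -0.37 to 0.45 (permutation p of 0.125 to 0.581, adjusted 0.563 to 0.653). High floor arrays were the higher of a time in 9 of 13 times for PRP3, by 0.19 log2 on average, in 10 for HPS, by 0.10, and in 11 for Ep, by 0.16.

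PRP3 shares its probe cluster, the first number of the probe set ID, with 5 other probe sets, 4 of them annotated as LOX7, a lipoxygenase, and 1 with no symbol. Clusters of this kind can join different genes, and the sequences of the probes were not used here, so whether the PRP3 probe set also binds another transcript of the cluster was not tested. The 2 LOX7 probe sets above the filter had amplitudes of 1.34 ± 0.29 and 1.23 ± 0.26 log2 (SE), both with a peak at 19.3 h, where PRP3 had 0.35. Their 13 time means correlated with those of PRP3 at r of 0.83 for each, and their replicate differences at r of 0.04 and 0.08. The probe set with no symbol had r of 0.23 over time means and 0.64 over replicate differences, and an amplitude of 0.03 ± 0.06 log2 (SE; limma adjusted p = 0.962). These r were not tested and are given as a description. The lowest time means of LOX7 were at 28 h, -2.33 and -1.98 log2 relative to the mean of each probe set, where PRP3 stood at -0.35 and had its own lowest mean, -0.47, at 60 h. HPS and Ep are alone in their probe clusters.

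**Figure D4:**
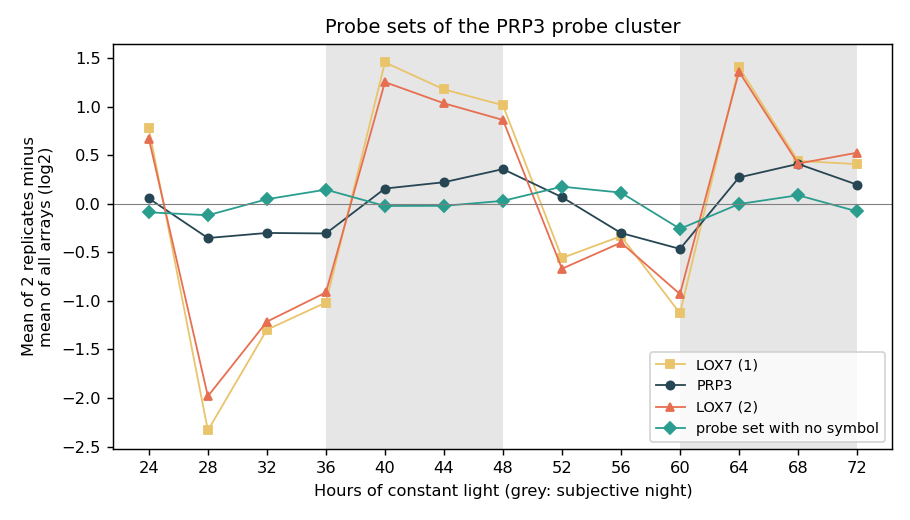
Time means of the 4 tested probe sets of the PRP3 probe cluster, each minus its own mean over all arrays (vertical axis, log2), against hours of constant light; grey marks subjective night. Both LOX7 probe sets swing by over 3 log2, PRP3 goes no lower than -0.47 log2, and the probe set with no symbol does not follow the other lines.

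Named genes with the time courses closest to each member were found by Pearson's r over the 13 time means, among 619 other named genes with 1 probe set each. Closest to PRP3 were PAP3 with r of 0.95, the Rubisco activases RCAALPHA with 0.92 and RCA14 with 0.89, and GSA1, of tetrapyrrole synthesis, with 0.89. Rubisco activase keeps the carbon-fixing enzyme Rubisco active in the chloroplast. Furthest were the chalcone isomerase CHI1A with -0.83, of flavonoid synthesis, and the NAC factor NAC2 with -0.80. Of these 6 genes, RCA14 and RCAALPHA passed the rhythm test (limma adjusted p = 0.00615 and 0.0246). For HPS the list held ELIP, an early light-induced thylakoid protein that passed the rhythm test (limma adjusted p = 0.0430), with r of 0.89, the 4-coumarate:CoA ligase 4CL2, of phenylpropanoid synthesis, with 0.87, FWL5 with 0.85 and COR1 with 0.79, and at the other end SNAP-1 with -0.92 and BZIP55 with -0.79. For Ep it held 4CL2 with 0.92, PAP3 with 0.89, PRX2, another peroxidase, with 0.86 and the stearoyl desaturase SACPD-C with 0.86, and at the other end DHAR3 with -0.89 and GASA3 with -0.85. With 13 points and 619 genes, high values of r arise in any search of this kind, and none was tested.

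No other gene of the wall lists passed the rhythm test, which 1.2% of all probe sets tested passed. With that share, lists this small would often hold no call, so their counts are no result about these genes. Of the 4 other tested probe sets of wall structural proteins none did, with a median amplitude of 0.09 log2 beside 0.08 over all tested. The proline-rich protein gene PRP2 had amplitudes of 0.05 ± 0.11 and 0.03 ± 0.13 log2 (SE) on its 2 probe sets, whose IDs mark them as shared between transcripts. SBPRP, another proline-rich protein, had 0.14 ± 0.11 (SE) and GRP, a glycine-rich protein, 0.17 ± 0.07 (SE) with a peak at 6.69 h, in the day. None of 6 probe sets of expansins, xyloglucan and cellulose enzymes passed, with amplitudes of 0.06 to 0.16 and CEL12 had the smallest p at 0.15 ± 0.08 (SE). A further probe set of GRP and that of XET1 lay below the filter.

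SCB1, a BURP-domain protein of the soybean seed coat, had the largest fitted amplitude in these lists and did not pass. Its log2 signal ran from 9.81 to 12.73 over the arrays, and its amplitude was 0.75 ± 0.20 log2 (SE), peaking at 20.2 h (adjusted p = 0.139 in limma). The late night mean exceeded that of midday by 1.42 log2 (limma adjusted p = 0.152). GM2S-1, an albumin of the eight-cysteine family that also holds HPS, was flat with an amplitude of 0.04 ± 0.03 (SE).

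The counts of calls in the next lists also stand beside a share of 1.2% over all probe sets tested. Among secreted peroxidases other than Ep, 0 of 4 tested probe sets passed and 3 further ones, including another probe set of GMIPER1, lay below the filter. The fitted peak of GMIPER1 lay in the day, with an amplitude of 0.53 ± 0.15 log2 (SE) at 8.34 h (limma adjusted p = 0.157). That of Ep was at 20.9 h, and neither fit passed. PRX2, PRX2B and PRX3 had amplitudes of 0.05 ± 0.03, 0.03 ± 0.03 and 0.09 ± 0.05 (SE). Of 8 tested probe sets of the phenylpropanoid and lignin pathway, which makes the phenolics that peroxidases can couple in walls, none passed. The phenylalanine ammonia-lyase PAL2.1 led with 0.31 ± 0.08 (SE) and a peak at 7.01 h (limma adjusted p = 0.139), while 5 of the 8 peaked between 15 and 24 h, as did 32.4% of all tested. None of 4 seed coat pigment genes passed, with amplitudes of 0.06 to 0.11, UGT78K1 at 0.06 ± 0.05 (SE). No embryo storage probe set of 18 passed, with a median amplitude of 0.05 and BBI-2 highest at 0.64 ± 0.18 (SE; limma adjusted p = 0.164). The 33 maturation probe sets had none either, with PM23 of smallest p at 0.14 ± 0.04 (SE; limma adjusted p = 0.229). Fitted peaks between 15 and 24 h were also found for 15 of the 18 storage and 9 of the 33 maturation probe sets.

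**Figure D5:**
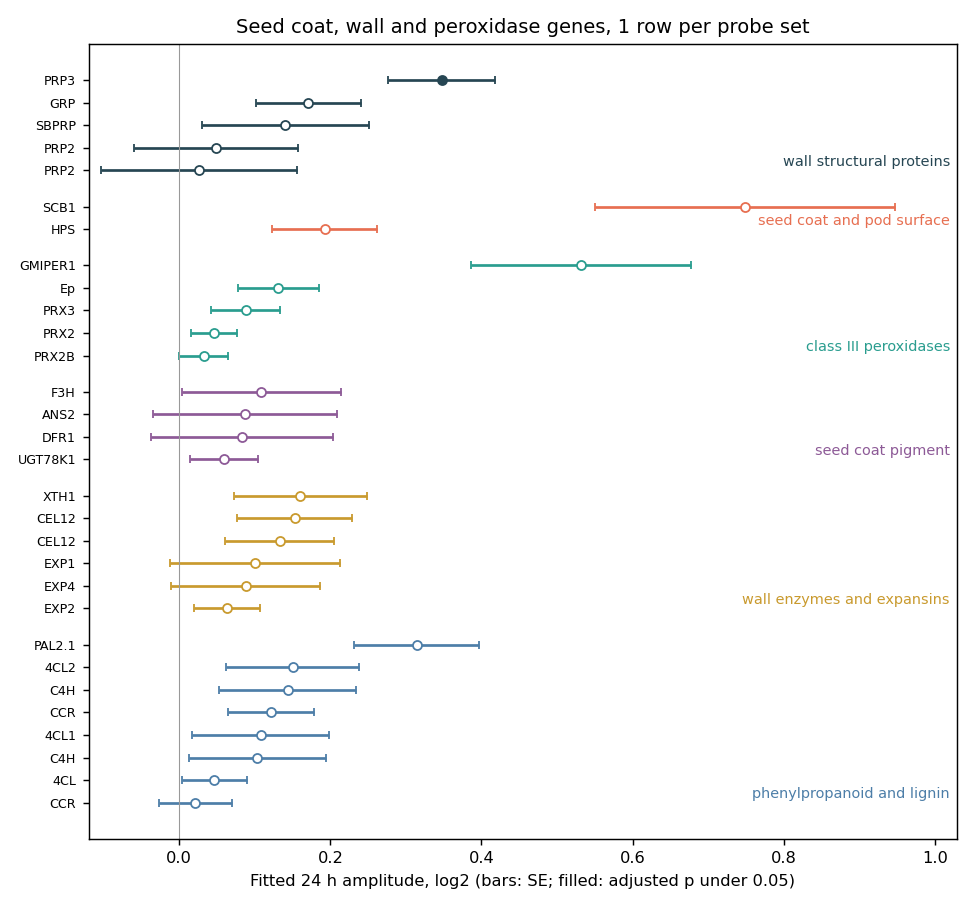
Fitted 24 h amplitude with its SE (horizontal axis, log2) of each tested probe set of 6 lists of wall, seed coat, peroxidase, pigment and phenylpropanoid genes; filled points passed the limma test at an adjusted p under 0.05, and an amplitude is above 0 by construction. PRP3 is the only filled point, where 1.2% of all probe sets tested passed, while SCB1 and GMIPER1 have larger amplitudes with larger SE.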

How the data were processed

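The table holds the authors' deposited log2 signal of each probe set, and GCRMA is the tool that the submitters' processing notes name, without a version. That the scale is log2 follows from its range. GCRMA compresses changes of weak signals. Symbols came from the platform annotation, and those of all 3 members were found unchanged in a RefSeq gene table.

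Groups followed the labelled times. Whether the 2 pools of a time shared plants is not labelled, and p-values therefore describe only how these pools vary, which may be technical. Replicates of a time correlated at r of 0.977 to 0.994.

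Tests used limma 3.58.1 in R 4.3.3 on the 11481 probe sets whose log2 signals averaged over 4, Benjamini-Hochberg at 0.05. They were also run on simulated data with independent noise. Those data lack the floor groups of these arrays and do not show how well small rhythms are found here. The members and gene lists, taken by patterns in symbols, were chosen with earlier results of these data known. Named genes were the members, the 4 genes of highest and the 2 of lowest r for each, and from each list the members past the rhythm test or that of smallest p. Outside this rule, PRP2, SBPRP, GRP, XET1, GM2S-1, PRX2B, PRX3 and CG-BETA-1 were named from the lists after their values were seen. So was LOX7, from the probe cluster of PRP3.

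Alternatives covered the filter, normalization, variance moderation, period, harmonics, linear time, the replicate and the floor group as blocks, and arrays left out. The labels give both replicates of each time a number. Replicate differences correlated between times at r of -0.38 to 0.61, over 0.1 in 34 of 78 pairs of times, and the numbers were not taken to pair the arrays. The numbers do go with the floor, as the low floor array was replicate 1 at 11 times and replicate 2 at 2. The replicate and floor group blocks are therefore largely the same split and not separate checks, and replicate differences largely set low against high floor arrays.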

Additional observations from a re-analysis of the deposited data

How the results depend on the processing

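The rhythm call of PRP3 ended with no filter (amplitude 0.347, limma adjusted p = 0.0504), in low floor arrays alone (0.369, 0.732), in high floor arrays alone (0.326, 0.219), with a period of 22 h (0.312, 0.0979) and with 24 h and 12 h harmonics tested together (0.353, 0.150). The first comes with more probe sets tested and the floor groups with fewer arrays, and otherwise the cause was not tested. It held after a further quantile normalization, with a mean-variance trend, without linear time, with a period of 26 h and with either block. The replicate and floor group blocks are largely the same split. Leaving out 1 array gave amplitudes of 0.307 to 0.376 for PRP3, 0.175 to 0.221 for HPS and 0.107 to 0.155 for Ep. It gave late night minus midday of 0.415 to 0.818 for PRP3, and a PRP3 to Ep ratio amplitude of 0.178 to 0.245. With the replicate block the rhythm of PRP3 had a limma adjusted p of 0.0233, and that block changed no call of a member. The linear term turned to -0.0524 for PRP3 in low floor arrays and to -0.211 for HPS in high floor arrays. Without the 2 farthest differences, r turned to 0.00399 for PRP3 and HPS, to 0.0173 for PRP3 and maturation genes and to -0.0794 for HPS and maturation genes.

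The 138 rhythm calls over all probe sets were 76 with no filter, 232 after quantile normalization, 258 without linear time, 64 at 22 h, 28 with both harmonics, 0 and 42 in low and high floor arrays alone, and 72 to 199 with 1 array left out. The 62 late night calls were 36 with no filter, 137 after quantile normalization, 108 with the floor block and 5 to 94 with 1 array left out. The 5 calls of any difference were 0 with no filter, 79 after quantile normalization, 59 with the variance trend, 12 with the replicate block, 35 with the floor block and 0 to 59 with 1 array left out. The 0 trend calls were 1 with the replicate block and 3 without the 24 h terms, and the 0 cycle calls 1 with the replicate block, 2 with the floor block and up to 74 without 1 array.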
